A study of Mus musculus with 9 samples.

Results

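The genes described here are 10 genes of epithelial-mesenchymal transition, of 18193 genes measured on the arrays. They are the transcription factors Snai1, Snai2, Zeb1, Zeb2, Twist1 and Twist2, the structural genes Vim and Cdh2, and the splicing factors Esrp1 and Esrp2. They were chosen by gene symbol, with earlier results of these data known. For each gene, the probe set annotated with that symbol alone that was brightest on average over the 9 arrays was used, and 10 of 10 genes had one. Intestinal epithelial cells were taken from newborn mouse pups (postnatal day 0) of 3 genotypes, with 3 arrays each. Control pups were Tfr1 fl/fl, with floxed alleles of the transferrin receptor, and the labels also call them wildtype. Knockout pups were Tfr1 IEC-KO, the knockout in intestinal epithelial cells, and rescue pups were Tfr1 IEC-KO;ROSA26 Tfr1R654A/+, with that knockout and a Tfr1 R654A allele at the ROSA26 locus. No pup was treated. The driver of the knockout is not given in the sources used here, nor is the number of pups behind an array, so p-values measure only the spread between these arrays, which may be technical. Small intestine and proximal colon were both used, and cells were released with EDTA and passed through a mesh, with no sort named in the labels.

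In epithelial-mesenchymal transition, a cell of an epithelial sheet loses its junctions and takes on a motile, fibroblast-like state. Proteins of the Snail, Zeb and Twist families are known to repress epithelial genes such as Cdh1 (E-cadherin), while vimentin filaments and N-cadherin (Cdh2) mark the mesenchymal state and Esrp1 and Esrp2 keep epithelial splice forms in place. Fibroblasts and other stromal cells of the gut wall use many of these same genes as part of their normal identity. In bulk RNA, a difference in the number of cells of a type and a difference in RNA per cell cannot be told apart.

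The promoters of Vim and Snai1 are shown because Vim varied widely over the 9 arrays and Snai1 little, with ranges of 5.26 and 0.33 log2 units. Each window runs 5′ to 3′ on the plus strand, from 250 bases before to 50 bases within the annotated start, as given by RefSeq for build GRCm38.p6. Capitals in the Vim window (chr2:13574061-13574360) mark the known core promoter element TATAAA, and capitals in the Snai1 window (chr2:167537945-167538244) mark CACCTG, a form of the E-box that Snail and Zeb proteins are known to bind.
Vim: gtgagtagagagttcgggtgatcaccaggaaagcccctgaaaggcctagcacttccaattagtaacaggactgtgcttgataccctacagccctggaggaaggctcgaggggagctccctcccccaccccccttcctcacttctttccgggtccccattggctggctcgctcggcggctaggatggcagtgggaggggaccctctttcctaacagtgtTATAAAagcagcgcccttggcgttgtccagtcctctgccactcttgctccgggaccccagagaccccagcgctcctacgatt
Snai1: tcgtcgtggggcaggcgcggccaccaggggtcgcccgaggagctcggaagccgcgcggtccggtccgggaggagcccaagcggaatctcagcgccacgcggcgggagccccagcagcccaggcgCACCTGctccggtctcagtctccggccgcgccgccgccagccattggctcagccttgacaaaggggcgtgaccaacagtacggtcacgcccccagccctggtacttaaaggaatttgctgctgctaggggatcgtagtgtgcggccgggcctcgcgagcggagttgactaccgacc
The TATAAA of Vim begins at position -32 relative to the start, and the CACCTG of Snai1 at position -126. Both motifs were searched on both strands (CACCTG, which reads CAGGTG on the opposite strand, and TATAAA, which reads TTTATA there), and neither overlaps the other. CACCTG was present in 20.2% of 32851 promoter windows of this length and TATAAA in 13.6%. The Vim window held no CACCTG and the Snai1 window no TATAAA. The Twist1 window held TATAAA at position -126, and the windows of Twist2 and Zeb2 held neither motif. In all, 5 of 10 members had an entry, with 8 windows between them. The matches describe the letters only, since no binding was measured in these samples.

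The arrays carried log2 values whose array medians lay between 5.93 and 6 (log2). Epithelial identity genes (Epcam, Cdh1, Vil1, keratins and others, 11 measured) had a summed level of 16.72 to 16.75 in control, 16.79 to 17 in knockout and 16.77 to 16.82 in rescue arrays (log2). Tfrc, the gene of Tfr1, was read by 3 probe sets. Probe set 1422966_a_at read 6.06, 6.29 and 6.11 in the control arrays, 5.92, 6.14 and 5.57 in the knockout arrays and 10.90, 10.91 and 10.74 in the rescue arrays. The rescue arrays were thus far above the others there, while knockout and control overlapped (adjusted p = 0.30 in limma over all probe sets). Which exons were deleted is not stated in the labels, so these Tfrc values check nothing about the knockout. Among the knockout arrays, replicate 3 stood apart from replicates 1 and 2 in many stromal genes, as given below, and results that rest on it are given with and without it.

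Vim, which encodes the intermediate filament of mesenchymal cells, was high in 2 of 3 knockout arrays. Its values were 6.44, 7.51 and 7.84 in the control arrays, 11.71, 11.43 and 7.64 in the knockout arrays and 8.66, 8.13 and 8.31 in the rescue arrays (log2). Knockout replicates 1 and 2 lay far above every other array, and knockout replicate 3 lay inside the control range. Group means were 7.26 ± 0.73 for control, 10.26 ± 2.27 for knockout and 8.37 ± 0.27 for rescue (SD, n = 3). The knockout mean was 7.98-fold the control mean, a log2 difference of 3.00 (SE 0.95), which did not pass the threshold of 0.05 in limma (Benjamini-Hochberg adjusted p = 0.071; interval of the difference 0.83 to 5.16).

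Cdh2, the cadherin of neural and mesenchymal cells, had the same split with a wider range. It read 3.82, 3.83 and 4.37 in the control arrays, 9.62, 8.06 and 3.93 in the knockout arrays and 5.55, 4.69 and 4.03 in the rescue arrays. Control values lay among the dimmest 40% of genes, where background flattens a change. As far as background goes, the knockout mean was thus at least 9.17-fold the control mean. The spread between arrays allows a smaller fold (interval of the log2 difference 0.45 to 5.94). The log2 difference of 3.20 (SE 1.20) had an adjusted p of 0.11 in limma, and knockout replicate 3 again sat within the control range. The other Cdh2 probe set, 1449244_at, read 4.12, 4.13 and 3.90 in control and 7.74, 5.67 and 4.53 in knockout arrays. There replicate 3 lay above every control array (difference 1.93, SE 0.65, adjusted p = 0.10 in limma over all probe sets).

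Among the transcription factors, Snai2, which encodes Slug, followed Vim and Cdh2. It read 4.26, 4.96 and 5.19 in the control arrays, 8.67, 7.49 and 5.17 in the knockout arrays and 5.34, 5.17 and 4.89 in the rescue arrays. As far as background goes, the knockout mean was at least 4.95-fold the control mean (log2 difference 2.31, SE 0.74, interval 0.63 to 3.99, adjusted p = 0.072 in limma). Knockout replicates 1 and 2 lay above all other arrays and replicate 3 among the controls. The probe set used for Snai2 is of the x class, whose probes may also bind other transcripts. The other Snai2 probe set, 1418673_at, differed by 0.57 (SE 0.26, adjusted p = 0.21 over all probe sets), with 5.47, 4.87 and 4.32 in the knockout arrays against 4.06 to 4.55 in control arrays.

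Snai1 and Twist1, which encode the factors Snail and Twist, had means among the dimmest 40% of genes in every genotype. Snai1 read 5.29, 5.29 and 5.16 in the control arrays, 5.39, 5.19 and 5.34 in the knockout arrays and 5.29, 5.44 and 5.12 in the rescue arrays. Its knockout minus control difference was 0.06 (SE 0.11, interval -0.20 to 0.31, adjusted p = 0.79 in limma). Twist1 read 3.74, 3.85 and 3.70 in the control arrays, 3.74, 3.64 and 3.87 in the knockout arrays and 3.68, 3.74 and 3.50 in the rescue arrays. Its difference was -0.01 (SE 0.11, interval -0.26 to 0.23, adjusted p = 0.95 in limma). The groups overlapped for both genes, and at such low signal a change in the RNA can be flattened.

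Twist2, the close relative of Twist1, was the sole member whose knockout and control arrays did not overlap. It read 5.80, 5.64 and 5.71 in the control arrays, 6.02, 5.95 and 5.86 in the knockout arrays and 5.80, 5.79 and 5.79 in the rescue arrays. The difference was small, 0.23 (SE 0.088, adjusted p = 0.12 in limma), on a gene among the dimmest 40%. Of the 10 members, 1 thus had all knockout arrays above all controls, as 12.7% of all genes did, and 0 had them all below, as 19.7% of all genes did.

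For Zeb1 and Zeb2, zinc-finger repressors of epithelial genes, the brightest probe sets hardly moved. Zeb1 (probe set 1443005_at) varied by only 0.045 over the 9 arrays, from 6.07 to 6.11. Zeb2 (probe set 1458941_at) read 6.71, 6.88 and 6.75 in the control arrays, 7.04, 7.31 and 6.87 in the knockout arrays and 6.77, 6.89 and 6.69 in the rescue arrays. Its knockout minus control difference was 0.30 (SE 0.13, adjusted p = 0.16 in limma), with replicate 3 inside the control range.

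Other probe sets of the same genes gave larger differences. Zeb2 probe set 1422748_at read 3.75, 3.95 and 4.68 in the control arrays, 6.84, 6.69 and 4.56 in the knockout arrays and 4.66, 4.69 and 4.59 in the rescue arrays, a difference of 1.90 (SE 0.54, adjusted p = 0.062 over all probe sets). Zeb1 probe set 1418926_at read 5.39, 5.14 and 5.77 in the control arrays, 7.62, 7.18 and 5.77 in the knockout arrays and 5.77, 5.77 and 5.63 in the rescue arrays, a difference of 1.43 (SE 0.40, adjusted p = 0.064). In both, knockout replicates 1 and 2 were above all other arrays and replicate 3 was not, the split seen for Vim, Cdh2 and Snai2.

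**Figure D1:**
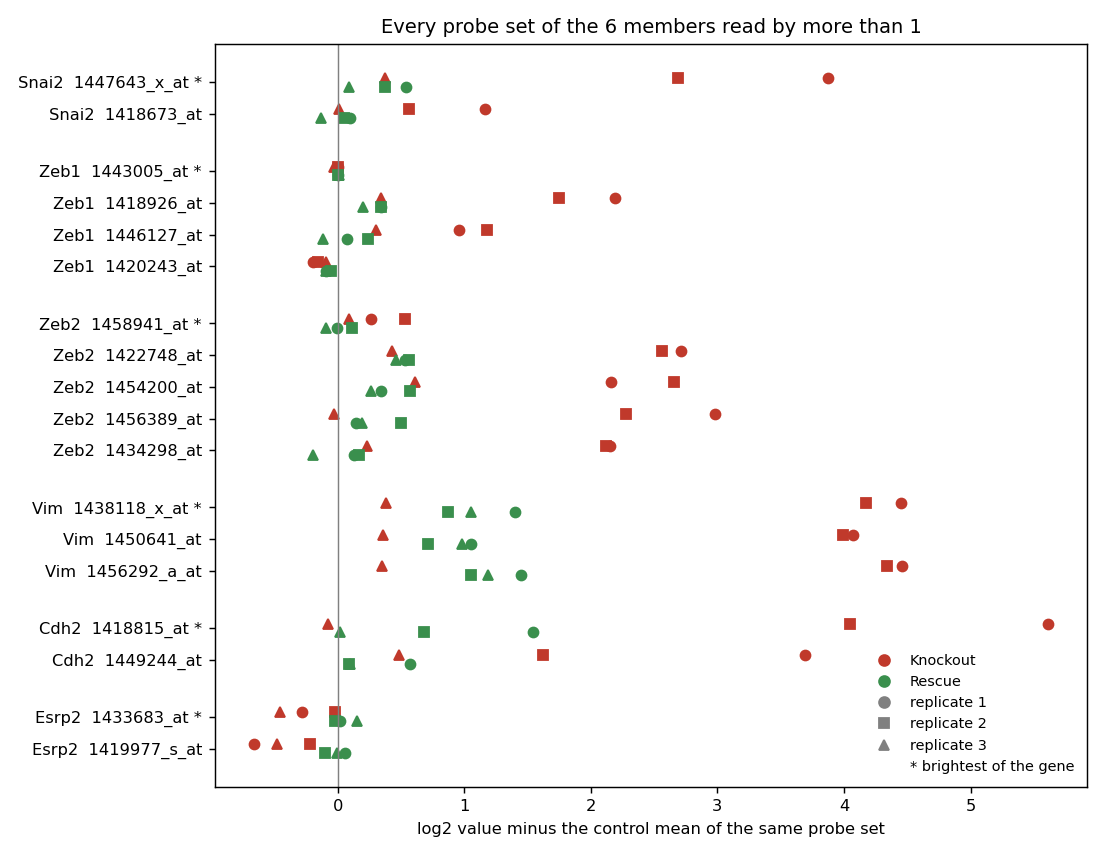
Each row is a probe set of the 6 members read by more than 1 (the asterisk marks the brightest of the gene), and the horizontal axis gives the log2 value minus the control mean of that probe set. Points are single arrays, red for knockout and green for rescue, with the marker shape giving the replicate: the brightest probe sets of Zeb1 and Zeb2 lie close to 0, while 2 others of Zeb1 and 4 others of Zeb2 have knockout replicates 1 and 2 far to the right.

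The 10 members were read by 22 probe sets, 5 for Zeb2, 4 for Zeb1, 3 for Vim, 2 each for Snai2, Cdh2 and Esrp2, and 1 each for the rest. Fitted with all 45101 probe sets, 1 of 22 passed between knockout and control, where 8.74% of all probe sets passed. It was Zeb2 probe set 1454200_at, which read 3.37, 3.30 and 3.84 in control and 5.66, 6.16 and 4.11 in knockout arrays (difference 1.81, SE 0.44, adjusted p = 0.038 in limma). This call was lost in 8 of 9 fits that left out 1 array, each array except knockout replicate 3, with adjusted p from 0.058 to 0.13. Without knockout replicate 3, 14 of 22 passed, against 21.0% of all probe sets, and all 3 Vim probe sets, both Cdh2 and Snai2 probe sets, 2 of 4 for Zeb1 and 5 of 5 for Zeb2 were among them. Zeb1 probe set 1418926_at then differed by 1.97 (SE 0.19, adjusted p = 0.00041) and Zeb2 probe set 1422748_at by 2.64 (SE 0.24, adjusted p = 0.00028). Knockout replicate 3 is the array that did not share the high values, so calls made without it largely follow from that choice. With all arrays, 6 of 22 member probe sets had every knockout array above every control array, as 11% of all probe sets did. Between rescue and knockout 0 of 22 passed, against 1.29% of all probe sets, and without knockout replicate 3 there were 13 of 22, against 11.6%. Between rescue and control 0 of 22 passed, against 0.14%. The 3 Vim probe sets gave like differences with all arrays, 2.81, 3.00 and 3.05, with adjusted p from 0.079 to 0.085 over probe sets.

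Esrp1 and Esrp2, the epithelial splicing regulators, were measured well above the dim range in every genotype. Esrp1 read 8.46, 8.78 and 8.23 in the control arrays, 9.10, 9.42 and 8.55 in the knockout arrays and 8.66, 8.58 and 9.35 in the rescue arrays. Its knockout minus control difference was 0.53 (SE 0.28, interval -0.09 to 1.16, adjusted p = 0.24 in limma), and the groups overlapped. Esrp2 read 8.12, 8.51 and 8.28 in the control arrays, 8.02, 8.28 and 7.84 in the knockout arrays and 8.32, 8.28 and 8.45 in the rescue arrays. Its difference was -0.25 (SE 0.14, interval -0.58 to 0.07, adjusted p = 0.28 in limma). The dimmer Esrp2 probe set, 1419977_s_at, read 6.61, 6.5 and 6.36 in the control arrays, 5.83, 6.27 and 6.01 in the knockout arrays and 6.55, 6.39 and 6.48 in the rescue arrays. There the knockout arrays lay below all control and rescue arrays (difference from control -0.46, SE 0.13, adjusted p = 0.062 over all probe sets). Without knockout replicate 2, the highest of its knockout arrays, it passed (difference -0.58, SE 0.12, adjusted p = 0.032), where 6.66% of all probe sets did. Of the 22 member probe sets it was the sole one with knockout arrays below all controls, an ordering that 15.8% of all probe sets had.

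**Figure D2:**
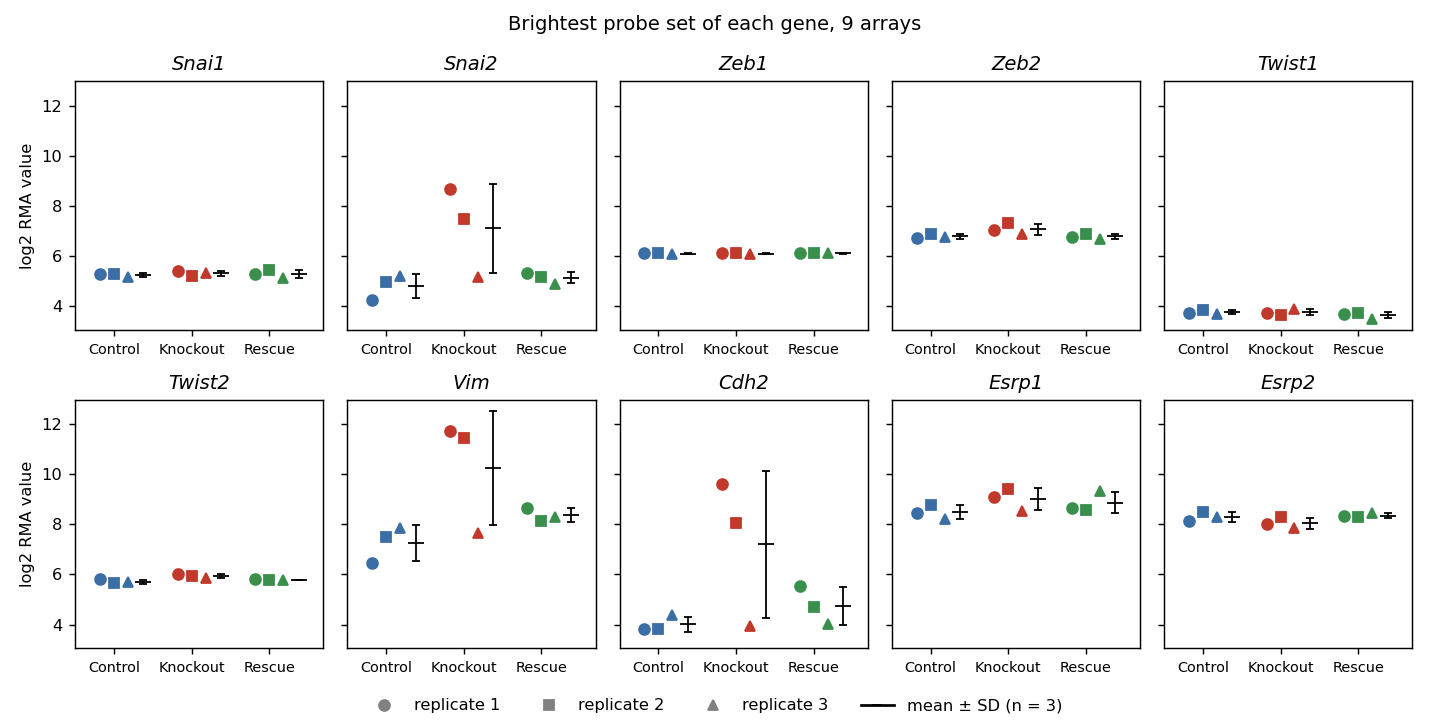
Log2 RMA value (vertical axis) of the brightest probe set of each of the 10 members in each array, grouped by genotype on the horizontal axis; the marker shape gives the replicate, and the black mark beside each group is the mean ± SD (n = 3). Vim, Cdh2 and Snai2 are high in 2 of 3 knockout arrays, and the other members vary far less.

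Between knockout and control, then, 0 of 10 members passed at an adjusted p of 0.05 in limma, where 14.1% of all 18193 genes passed. At an unadjusted p under 0.05 there were 5 of 10 members, against 30.1% of all genes. Leaving out knockout replicate 3, the knockout array where Vim, Cdh2 and Snai2 were low, changed the calls. The outcome of that fit was thus largely set by values already seen, and it is no separate support. Vim then differed by 4.31 (SE 0.37, adjusted p = 0.00022), Cdh2 by 4.83 (SE 0.53, adjusted p = 0.0006), Snai2 by 3.28 (SE 0.37, adjusted p = 0.00072) and Zeb2 by 0.40 (SE 0.12, adjusted p = 0.039), so 4 of 10 members passed, where 27.5% of all genes did. When knockout replicate 3 alone stood for the knockout, the differences were 0.37 for Vim, -0.07 for Cdh2 and 0.37 for Snai2 (adjusted p = 0.67, 0.95 and 0.54 in limma), with the spread taken from the other groups.

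In the comparison of rescue with knockout, which shares the knockout arrays, 0 of 10 members passed, against 2.31% of all genes, and 1 of 10 had an unadjusted p under 0.05, against 18.9%. The rescue minus knockout difference was -1.89 for Vim (SE 0.95, adjusted p = 0.32), -2.45 for Cdh2 (SE 1.20, adjusted p = 0.31) and -1.98 for Snai2 (SE 0.74, adjusted p = 0.20). All rescue arrays lay below knockout replicates 1 and 2 for these 3 genes, while knockout replicate 3 lay below every rescue array for Vim and Cdh2. Twist2 was again the sole member without overlap, its rescue arrays lying below the knockout arrays by 0.15 (SE 0.088, adjusted p = 0.39), an order that 7.5% of all genes had. Without knockout replicate 3, 3 of 10 members passed, where 15.4% of all genes did. They were Vim at -3.20, Cdh2 at -4.08 and Snai2 at -2.95 (adjusted p = 0.0016, 0.0024 and 0.0023 in limma). Here too the array left out was the knockout array low in these 3 genes, which largely set the outcome.

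Between rescue and control, 0 of 10 members passed in limma, against 0.126% of all genes, and 0 of 10 had an unadjusted p under 0.05, against 6.62%. Vim was the sole member without overlap, with all rescue arrays above all control arrays, an order that 6.74% of all genes had. The difference was 1.10 (SE 0.95, interval -1.06 to 3.27, adjusted p = 1 in limma), and the other 2 Vim probe sets ordered the arrays in the same way. Cdh2 differed by 0.75 (SE 1.20) and Snai2 by 0.33 (SE 0.74), both with overlap. The remaining 7 members differed by between -0.13 (Twist1) and 0.37 (Esrp1). These standard errors pool the spread of all 3 genotypes, so for Vim, Cdh2 and Snai2 they carry the split among the knockout arrays. Without knockout replicate 3, the fit over all probe sets gave Vim 1.10 (SE 0.33, adjusted p = 0.30 in limma). It gave Cdh2 0.75 (SE 0.46) and Snai2 0.33 (SE 0.33).

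Fibroblast genes were set beside the members as a check on stromal cells. Dcn, which encodes the matrix proteoglycan decorin, read 6.78, 7.94 and 6.95 in the control arrays, 11.63, 11.68 and 7.33 in the knockout arrays and 9.28, 7.72 and 9.05 in the rescue arrays. Its knockout arrays split as those of Vim did, with replicates 1 and 2 far above control and replicate 3 inside the control range (difference 2.99, SE 1.07, adjusted p = 0.10 in limma). Relative to the control mean, Dcn was shifted by 4.40, 4.46 and 0.11 in knockout replicates 1, 2 and 3, where Vim was shifted by 4.44, 4.17 and 0.37, Cdh2 by 5.61, 4.05 and -0.07, and Snai2 by 3.86, 2.69 and 0.37. The median shift of the 17 fibroblast genes measured, of 18 listed, was 3.92, 3.18 and 0.22. In rescue replicates 1, 2 and 3 the shifts were 2.06, 0.50 and 1.83 for Dcn, 1.39, 0.86 and 1.05 for Vim, and 0.69, 0.51 and 0.38 for the fibroblast median.

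**Figure D3:**
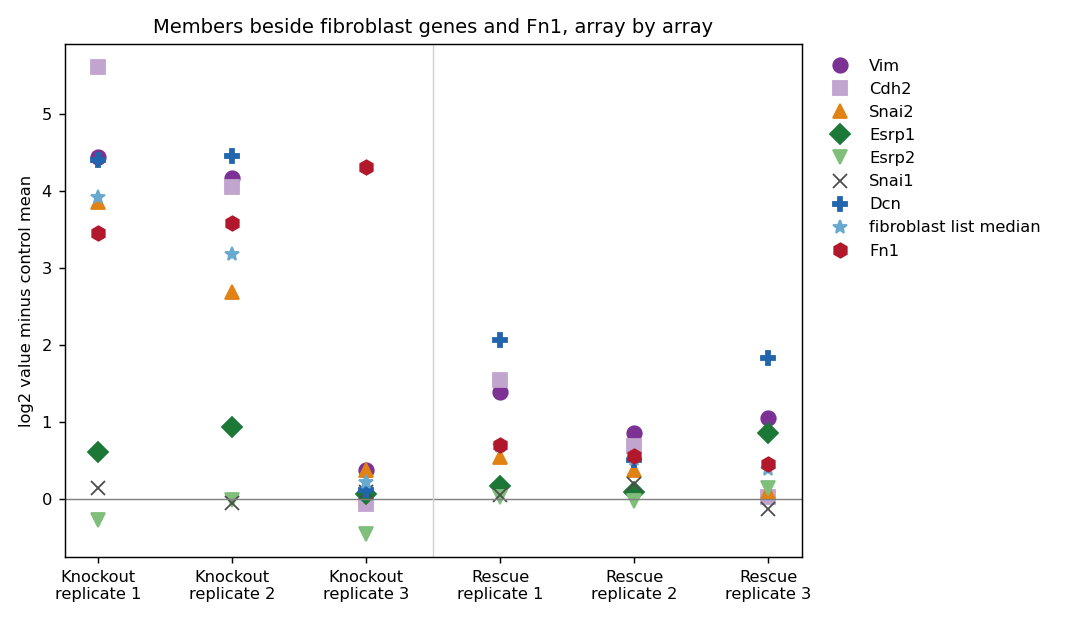
Log2 value minus the control mean (vertical axis) in each knockout and rescue array (horizontal axis) for Vim, Cdh2, Snai2, Esrp1, Esrp2, Snai1, Dcn, the median of the fibroblast list and Fn1, 1 symbol each. Vim, Cdh2, Snai2 and the fibroblast median lie close to the control mean in knockout replicate 3, at 0.37, -0.07, 0.37 and 0.22, while Fn1 is at 4.32 there.

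The summed level of the fibroblast list was 11.40 to 11.92 in control, 12.11 to 15.23 in knockout and 12.08 to 12.82 in rescue arrays (log2). Of its 17 genes, 16, 16 and 1 lay more than 1 log2 unit above their control mean in knockout replicates 1, 2 and 3, a limit chosen after the values were seen. The corresponding counts for the 10 members were 3, 3 and 0, and the shares of all genes 8.39%, 6.08% and 3.18%. In rescue replicates 1, 2 and 3 the counts were 8, 0 and 3 of 17 fibroblast genes and 2, 0 and 1 of 10 members. The shares of all genes there were 1.71%, 0.797% and 1.57%. All rescue arrays lay above all control arrays in 9 of 17 fibroblast genes, as they did for Vim and for 6.74% of all genes. Between knockout and control 3 of 17 fibroblast genes passed, Pdgfra, Col6a1 and Col6a2, where 14.1% of all genes passed. The list median was 2.47 against -0.04 for all genes. The calls of these 3 genes were lost when single arrays were left out, in 4 of 9 fits for Pdgfra (without control replicates 1 and 2 and knockout replicates 1 and 2, adjusted p up to 0.11) and in all but the fit without knockout replicate 3 for Col6a1 and Col6a2 (up to 0.14 and 0.12).

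With the mean of the fibroblast list as a covariate in the fit, the knockout minus control difference was 0.05 for Vim, -0.53 for Cdh2 and 0.04 for Snai2 (adjusted p = 0.95, 0.43 and 0.96 in limma). The fibroblast list was high in the same knockout replicates, 1 and 2, so this fit takes out the shared split whatever its source. Smooth muscle genes, 10 measured, summed to 9.44 to 9.52 in control, 9.72 to 13.24 in knockout and 9.78 to 10.27 in rescue arrays, and their median shift between knockout and control was 1.53 with 0 of 10 passing. Endothelial genes summed to 10.08 to 10.83, 10.79 to 11.75 and 10.34 to 10.75, neuron and glia genes to 9.53 to 9.59, 10.02 to 11.52 and 9.59 to 9.72, and mesothelial genes to 9.05 to 9.19, 9.47 to 10.90 and 8.91 to 9.33, in the same order of genotypes. Leukocyte genes summed to 13.15 to 13.45, 12.62 to 12.89 and 12.47 to 13.08, a sum set mostly by its brightest gene, Csf1r. The median leukocyte gene differed the other way, by 0.57 between knockout and control, and lay 0.95, 0.59 and 0.18 above its control mean in knockout replicates 1, 2 and 3. Between knockout and control 2 of 11 endothelial genes (Tek and Egfl7), 1 of 8 neuron and glia genes (Ret) and 3 of 6 mesothelial genes (Lrrn4, Msln and Upk1b) passed as higher. Among all genes, 5.29% passed as higher, 8.77% as lower and 14.1% in either direction. Of 11 leukocyte genes Tyrobp passed as higher and Csf1r as lower. Leaving out 1 array kept the call of Lrrn4 in 9 of 9 fits, and ended the others in 2 (Tek and Upk1b) to 8 (Tyrobp) of 9. The part of these cell types in the values of Vim, Cdh2, Snai2, Zeb1 and Zeb2 was not tested.

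Vim's profile over the 9 arrays, each value minus the gene's own control mean, was closest to that of Col1a2, at a root mean square difference of 0.239 (log2) among 9095 genes above the median level. Fstl1, Ndn, Col3a1 and Col5a2 followed at 0.256, 0.287, 0.352 and 0.399. Col1a2, Col3a1 and Col5a2 encode fibrillar collagen chains. Col1a2 read 7.95, 8.48 and 8.65 in the control arrays, 12.60, 12.31 and 8.77 in the knockout arrays and 9.87, 8.87 and 9.29 in the rescue arrays, so its high arrays were those of Vim. Among the members, Vim was closest to Cdh2 (0.607) and Snai2 (0.711). The brightest probe set of Zeb2 was closest to Usp36, Zdhhc14, Kif13a, Selplg and Snapc3, at 0.0752 to 0.0886, and lay 1.99 from Vim. These are descriptions over 9 shared arrays.

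Mesenchymal effector genes, the matrix, protease and cytoskeletal genes that are known to accompany the transition, did not all follow Vim. Of 22 measured, 9 passed as higher in knockout than control and 0 as lower, with a median of 1.49, where 5.29% of all genes passed as higher. Fn1, which encodes fibronectin, read 7.01, 7.24 and 7.56 in the control arrays, 10.72, 10.85 and 11.59 in the knockout arrays and 7.97, 7.82 and 7.72 in the rescue arrays. All 3 knockout arrays were high, replicate 3 the highest, and Fn1 rose 13.8-fold (log2 3.78, SE 0.23, adjusted p = 0.00018 in limma). Mmp14, a membrane-bound matrix protease, read 6.89, 6.91 and 6.88 in the control arrays, 8.49, 8.18 and 8.27 in the knockout arrays and 6.95, 6.86 and 6.78 in the rescue arrays (rise of 1.42, SE 0.10, adjusted p = 0.00032). Both calls held in 9 of 9 fits that left out 1 array. When knockout replicate 3 alone stood for the knockout, Fn1 was still 4.32 above control (adjusted p = 0.00047), where Vim was 0.37 above.

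**Figure D4:**
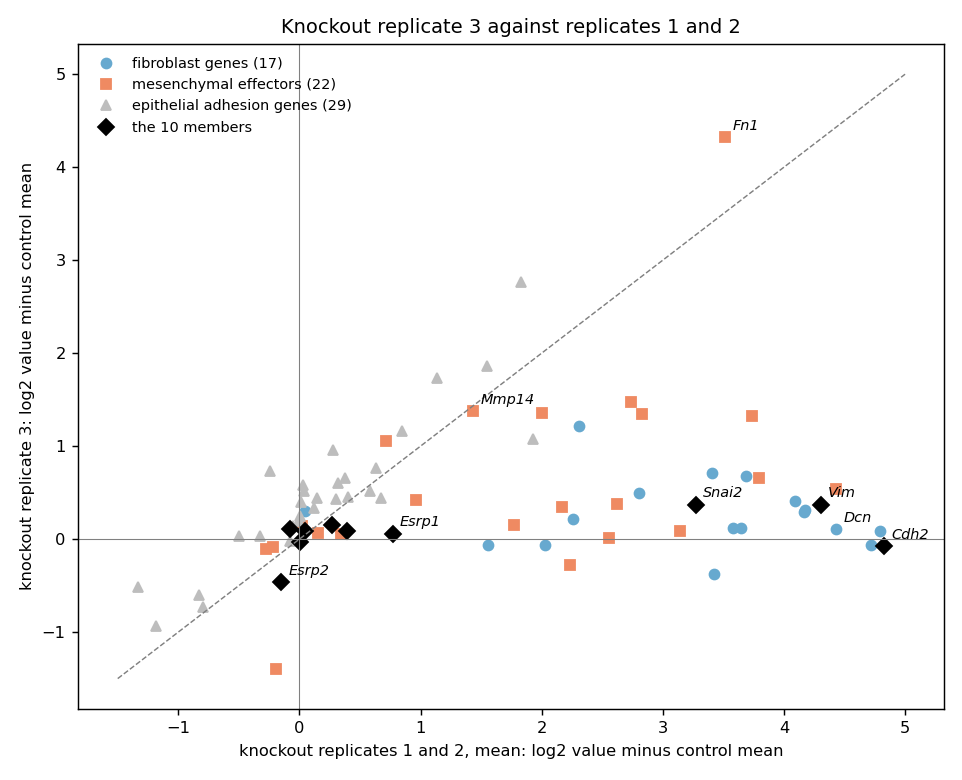
Log2 value minus the control mean in knockout replicate 3 (vertical axis) against the mean of the same in knockout replicates 1 and 2 (horizontal axis), with 1 point per gene for the 10 members, 17 fibroblast genes, 22 mesenchymal effectors and 29 epithelial adhesion genes; the dashed line marks equal values. Vim, Cdh2, Snai2 and Dcn lie far to the right and near 0 on the vertical axis, while Fn1 lies above the line at 4.32.

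In knockout replicate 3, 7 of 22 effectors lay more than 1 log2 unit above their control mean (Fn1, Mmp14, Itgav, Tgfbi, Ccn2, Lgals1 and Cald1), against 0 of 10 members, 1 of 17 fibroblast genes and 3.18% of all genes. Cald1, which encodes an actin-binding protein, rose by 2.33 (SE 0.41, adjusted p = 0.0088 in limma), with 11.03, 10.48 and 9.28 in knockout arrays against 7.56 to 8.23 in control. With a probe set outside the s, x and a classes, which may also bind other transcripts, Cald1 differed by 1.28 (adjusted p = 0.069). Ccn2, a secreted matrix protein, rose by 2.31 (SE 0.45, adjusted p = 0.013), a call lost without control replicate 1 or control replicate 3 (adjusted p up to 0.059), with the fibroblast covariate (1.37, adjusted p = 0.13) and with knockout replicate 3 alone (1.47, adjusted p = 0.11). Between rescue and knockout 4 of 22 effectors passed as lower, where 1.08% of all genes did. Fn1 fell by 3.22 (SE 0.23, adjusted p = 0.0011) and Mmp14 fell by 1.45 (SE 0.10, adjusted p = 0.0011), calls kept in 9 of 9 fits that left out 1 array. The calls of Ccn2 and Cald1 (adjusted p = 0.032 and 0.034) were lost in 6 of 9 and 8 of 9 such fits, to 0.12 for both, and among the knockout arrays leaving out replicate 1 or 2 ended them while leaving out replicate 3 did not. Leaving out control replicate 3 or any rescue array also ended both calls, and control replicate 1 or 2 that of Cald1. In the comparison of rescue with control, 0 of 22 passed in either direction, against 0.126% of all genes.

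Of 19 signalling genes known to induce or restrain the transition, 4 passed as higher in knockout than control and 1 as lower, with a median of 0.34. Of all genes, 5.29% passed as higher and 8.77% as lower. Tgfbr2, a receptor for TGF-beta, rose by 1.76 (SE 0.28, adjusted p = 0.0061 in limma), but the brightest of its probe sets designed on a curated transcript differed by 0.15 (adjusted p = 0.45). The Notch ligand Jag1 rose by 2.32 (SE 0.38, adjusted p = 0.0066) and the ligand Bmp2 by 1.87 (SE 0.33, adjusted p = 0.0086), which did not pass with the fibroblast covariate (1.55, adjusted p = 0.074). The ligand Tgfb1, named after its values were seen, was higher by 0.34 (adjusted p = 0.044), and its call was lost in 8 of 9 fits that left out 1 array, each except knockout replicate 3 (adjusted p up to 0.13). Bmp7, a ligand known to oppose the transition in epithelia, fell by 1.78 (SE 0.20, adjusted p = 0.0015). It read 9.37, 9.00 and 9.26 in the control arrays, 7.59, 6.98 and 7.70 in the knockout arrays and 9.10, 8.81 and 8.92 in the rescue arrays, with all knockout arrays below the rest. Between rescue and knockout Bmp7 was the sole gene of the list to pass, where 2.31% of all genes did, and was higher by 1.52 (SE 0.20, adjusted p = 0.0099 in limma). Of 7 further transcription factors linked to the transition, 1 passed between knockout and control, against 14.1% of all genes. It was the dim gene Foxc1 (rise of 0.79, adjusted p = 0.025 in limma). That call was lost without control replicate 2 or 3 (adjusted p up to 0.097) and with the fibroblast covariate (0.69, adjusted p = 0.14).

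Among epithelial adhesion genes, of which Cdh1 is the best-known target of Snail, Zeb and Twist proteins, more passed as higher than as lower. Of 29 junction and keratin genes measured, 11 passed as higher in knockout than control and 4 as lower, with a median of 0.21, where 5.29% of all genes passed as higher and 8.77% as lower. Cdh1, named after its values were seen, was shifted from its control mean by 0.41, 0.20 and 0.43 in the knockout arrays and by 0.24, 0.06 and 0.15 in the rescue arrays. Its knockout minus control difference was 0.34 (SE 0.097, adjusted p = 0.049 in limma), a call lost in 8 of 9 fits that left out 1 array, each except knockout replicate 2 (adjusted p up to 0.15). Cldn3, a tight junction claudin, rose by 1.65 (SE 0.22, adjusted p = 0.0028 in limma) and the keratin Krt8 by 0.68 (SE 0.091, adjusted p = 0.0031). Lad1 fell by 0.78 (SE 0.10, adjusted p = 0.0027) and Ap1m2, an adaptor for sorting to the basolateral membrane, fell by 1.10 (SE 0.12, adjusted p = 0.0012), and Rab25 and Prss8 were the other genes that fell. Of 15 epithelial transcription factors 3 passed as higher and 2 as lower: Klf4 rose by 1.79 (SE 0.34, adjusted p = 0.012, and 0.059 with the fibroblast covariate) and Grhl3 by at least 1.0 (SE 0.15, adjusted p = 0.0047), while the intestinal factor Cdx1 fell by 1.54 (SE 0.19, adjusted p = 0.0023). Cdx2 fell by 0.74 (SE 0.14, adjusted p = 0.011), a call lost without control replicate 3 (adjusted p = 0.051). Foxa1, named after its values were seen, was higher by 0.94 (adjusted p = 0.047), a call lost in 7 of 9 fits that left out 1 array, each except knockout replicate 3 and rescue replicate 1 (adjusted p up to 0.14).

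Beside Esrp1 and Esrp2, 1 of 6 other splicing regulators passed between knockout and control, where 14.1% of all genes did. It was Rbfox2 (0.40, SE 0.11, adjusted p = 0.044 in limma). Its call was lost in 8 of 9 fits that left out 1 array, each except knockout replicate 3 (adjusted p up to 0.15). Its sign turned to -0.055 without probe sets of the s, x and a classes. Of 9 genes whose splicing Esrp proteins are known to control, 1 passed, against the same 14.1% of all genes. It was the exocyst gene Exoc7 (-0.48, SE 0.11, adjusted p = 0.022 in limma). The call was lost when any of the control arrays or knockout replicate 1 or 2 was left out (adjusted p up to 0.085). It was also lost with the fibroblast covariate (-0.31, adjusted p = 0.18). Cd44, a cell surface receptor with many splice forms, had knockout arrays above all controls but did not pass (1.94, SE 0.58, adjusted p = 0.057). These values are summed over splice forms as far as a probe set reads them, so they carry no measure of splicing.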

How the data were processed

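RNA of 9 samples was measured on Affymetrix mouse arrays. The deposited values are log2 values, 1 per probe set and array, and the submitters' processing notes name RMA and Partek 6.5. Their order and roles and any filter on probes are not stated there. Values were used as deposited. Of 45101 probe sets, 932 carried several symbols and 9211 none in the 2016 annotation, and these were left out. In all, 18193 genes remained, each as its brightest probe set.

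All genes and all 9 arrays entered 1 fit with a mean per genotype, by lmFit and eBayes (limma 3.58.1, R 4.3.3). The fit was first tried on simulated data with the same spread in all genotypes. That trial did not cover the wider knockout spread (median SD 0.225, against 0.104 in control) or a split within a group. Tests were two-sided, with Benjamini-Hochberg adjustment over all genes of a comparison (or over all probe sets where stated) and a threshold of 0.05. Errors of differences are limma standard errors, and intervals cover 95%. Depth does not apply to arrays, and their number limits the precision. A group mean in the dimmest 40% of genes (6.18, 6.30 and 6.21 in control, knockout and rescue) makes a fold a lower bound. The bound concerns background, and the spread between arrays can allow a smaller fold.

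The members, 14 further gene lists and the rule for named genes were chosen with earlier results of these data known. The rule takes the members, Dcn, up to 4 genes of smallest knockout minus control p from each list, and the 5 genes closest in profile to Vim and to Zeb2. Genes of these that no result turned on are not given by value. No list was given a set test, and 10 listed genes were not measured. Of 36 pairs of arrays, 0 were identical. Gene positions and promoters are RefSeq's, on GRCm38.p6. Alternatives covered the probe set, a filter on dim genes, normalization, eBayes options, array weights, the arrays in the fit, a replicate block, a fibroblast covariate and leaving out arrays.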

Additional observations from a re-analysis of the deposited data

How the results depend on the processing

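The number of members called was 0 of 10 in all 3 comparisons under several alternatives. Some took another choice of probe set (mean of all, without the s, x and a classes, or designed on a curated transcript). The others were quantile normalization, trended robust eBayes, 2 groups only and the fibroblast covariate. The curated-transcript choice was made after seeing the data, and among the members it changed the probe set of Snai2, Zeb1 and Zeb2 only. In these fits 9.1% to 14.6% of all genes passed between knockout and control. The shares were 0.165% to 5.23% for rescue against knockout and 0.077% to 0.819% for rescue against control. Leaving out dim genes kept 4 members (Esrp1, Vim, Esrp2 and Zeb2), with 0 called. Of the genes kept there, 22%, 3.75% and 0.192% passed in the 3 comparisons. With array weights, which gave knockout replicate 3 a weight of 0.166, 6 members passed between knockout and control (Cdh2, Esrp1, Snai2, Twist2, Vim and Zeb2, among 6395 genes, 35.2% of all) and 4 between rescue and knockout (Cdh2, Snai2, Vim and Zeb2, among 2453 genes, 13.5%). Leaving out 1 array gave 0 to 4 members between knockout and control, 0 to 3 between rescue and knockout and 0 between rescue and control, and the counts above 0 came only without knockout replicate 3. The low weight and the omission both act on the knockout array where Vim, Cdh2 and Snai2 were low, so these calls are no separate support. Genes called between knockout and control ranged from 936 to 4998 in the fits that left out 1 array (5.14% to 27.5% of all), against 2559 with all arrays. The shares of all genes in those fits were 0.577% to 15.4% for rescue against knockout and 0.011% to 0.748% for rescue against control.

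Same-numbered arrays of different genotypes were not shown to be pairs: the correlation of their deviations ran from -0.222 to 0.402, with 2 of 9 over 0.1. With the replicate number as a block, 0 members passed in each comparison, and 2404, 257 and 12 genes passed.

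Signs turned where differences were small or rested on knockout replicates 1 and 2. Between knockout and control, Zeb1 was 0.52 with the mean of its probe sets, 1.43 with the curated-transcript probe set and 0.0062 with array weights. With the fibroblast covariate, Twist1 was 0.095, Cdh2 -0.53 and Dcn -0.16, and with knockout replicate 3 alone Twist1 was 0.11 and Cdh2 -0.073. Rbfox2 was -0.055 without the s, x and a classes. Between rescue and knockout, Zeb1 was -0.45 with the mean of its probe sets and -1.14 with the curated-transcript probe set, and Snai1 was 0.0044 after quantile normalization and 0.08 with array weights. With the fibroblast covariate Vim was 0.18, Cdh2 0.18 and Esrp1 0.13, and against knockout replicate 3 alone they were 0.73, 0.82 and 0.31. Between rescue and control, the covariate gave -0.34 for Snai2, -0.051 for Zeb2, -0.36 for Cdh2 and -0.016 for Esrp2. None of these passed.

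Over the fits that left out 1 array, the knockout minus control difference ran from -0.013 to 0.0047 for Zeb1 and from -0.075 to 0.043 for Twist1. Rescue minus knockout ran from -0.1 to 0.061 for Snai1 and from -0.4 to 0.037 for Esrp1, and rescue minus control from -0.044 to 0.12 for Snai1, -0.048 to 0.057 for Zeb2 and -0.045 to 0.15 for Esrp2.

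The cause was not tested. Signal limits Snai1, Snai2, Twist1, Twist2, Zeb1 and Cdh2, whose control means lie among the dimmest 40% of genes, where background flattens a change.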
